A study of Homo sapiens with 4 samples.

Results

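Small nucleolar RNA host genes are long non-coding RNA (lncRNA) genes whose introns carry the small nucleolar RNAs (snoRNAs) that guide modification and cleavage of ribosomal RNA. They were examined in extracellular vesicles (EVs) of PC3 cells, an established prostate cancer line derived from a bone metastasis. Every gene of the lncRNA type in GENCODE release 44 whose symbol is SNHG followed by a number was taken, with GAS5 and ZFAS1. EPB41L4A-AS1 was left out. This gave 30 genes, 28 of them with an SNHG symbol, and all 30 had a row among the 58051 genes of the count tables. The study sequenced a single condition, PC3 EVs, with qEV size exclusion columns named in the sample labels for their isolation and the exoEasy membrane kit named beside them in the study's methods. It did so as 2 replicates of a stranded total RNA library and 2 of a small RNA library, described as biological replicates. No cells or other vesicles were sequenced beside them, so every comparison here is between genes or between replicates.

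A host transcript is spliced, its exons are joined, and the snoRNA is trimmed out of the excised intron. The spliced exons often hold no long reading frame and many are removed by nonsense-mediated decay once a ribosome has met them. Many host genes share with ribosomal protein genes a transcript that begins with a C followed by an unbroken run of pyrimidines, the 5′ terminal oligopyrimidine (TOP) start, which ties translation of the RNA to cell growth signals. Several are widely studied in cancer, GAS5 as a transcript that accumulates in growth arrest and ZFAS1, SNHG1 and SNHG7 as transcripts often raised in tumours.

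The TOP start is printed first because it is a sequence feature that the choice of genes did not use. A transcript was counted when its first base was C and at least 4 pyrimidines followed, read on the strand of the gene. Of the 30 genes, 17 (56.7%) had at least 1 GENCODE transcript with such a start, against 6.10% of 14157 lncRNA genes. The genes have a median of 14 annotated transcripts against 1 for all lncRNA genes, which gives more starts to match. Counted by transcript, 137 of 881 (15.6%) began this way, against 2.78% of 47848 lncRNA transcripts. At the RefSeq gene start (GRCh38.p14), which was given for 26 of the 30 genes, 7 (26.9%) matched, against 4.07% of 35116 genes of all types. A match describes the annotated first bases and is not evidence of regulation in these vesicles. The first 30 bases are shown for 10 of the 17 genes, picked after the sequences were seen, with the C and its pyrimidine run in capitals. Each is, among the starts of a gene that match, the one found in the largest number of its transcripts in GENCODE release 44 on GRCh38.
GAS5: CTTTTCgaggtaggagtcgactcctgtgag
SNHG16: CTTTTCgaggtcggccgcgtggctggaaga
SNHG29: CTTTTCattcccgttgttatggagggccac
SNHG26: CTTTTCggccgcggcgcgtgactgggcttg
ZFAS1: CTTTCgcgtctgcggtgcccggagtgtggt
SNHG8: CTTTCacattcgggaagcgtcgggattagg
SNHG25: CTTTCagcgcctgcaggttccgggaggtca
SNHG5: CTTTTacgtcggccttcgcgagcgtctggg
SNHG3: CCTTTTTggagacagattcgcagtggtcgc
SNHG12: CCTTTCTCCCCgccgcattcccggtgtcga

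These starts lie at chr1:173867960-173867989 on the minus strand for GAS5, chr17:76557769-76557798 on the plus strand for SNHG16, chr20:49278642-49278671 on the plus strand for ZFAS1 and chr4:118278758-118278787 on the plus strand for SNHG8. Those of SNHG29 and SNHG26 run across a splice junction, and their first bases are at position 16439037 of chromosome 17 and position 22854256 of chromosome 7, both on the plus strand. The SNHG25 start lies at chr17:64145970-64145999 on the plus strand and the SNHG5 start at chr6:85678704-85678733 on the minus strand. On chromosome 1, the SNHG3 start lies at chr1:28506043-28506072 on the plus strand and the SNHG12 start at chr1:28581844-28581873 on the minus strand. The start shown belongs to 50 of 91 transcripts of GAS5, 23 of 62 of SNHG29, 9 of 22 of SNHG26, 5 of 14 of ZFAS1 and 5 of 15 of SNHG8. It belongs to 4 of 19 transcripts of SNHG12, 3 of 18 of SNHG16, 3 of 89 of SNHG5 and 1 of 3 of both SNHG3 and SNHG25, so only in GAS5 is it that of a majority. The 6 bases in capitals are identical in GAS5, SNHG16, SNHG29 and SNHG26. Of the 11 genes with at least 10 reads summed, described below, SNHG7, SNHG10, SNHG14 and SNHG15 had no annotated transcript of this kind.

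The total RNA libraries held 489170 and 475942 reads counted on genes, so 1 read was worth 2.04 counts per 1000000 gene reads (CPM) in replicate 1 and 2.10 CPM in replicate 2. A count of 0 was taken to allow up to 3 reads, or 6.13 and 6.30 CPM. Even counts were in excess. Of the genes with 1 to 20 reads, 70.3% in replicate 1 and 67.5% in replicate 2 had an even count, as had 8 of 11 and 12 of 15 host genes with a read. The intervals below treat each read as independent and cover counting error only. Genes of the PC3 line and of epithelial cells were present, all 6 with a read in both replicates, KRT8 highest with 966 and 1088. No read was counted on KLK3, KLK2 or TMPRSS2, which PC3 cells lack, or on the 5 blood cell genes. A lower level of a transcript per vesicle and fewer vesicles that carry it cannot be told apart in such bulk RNA.

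The host genes were a small part of the vesicle RNA. Together they took 189 reads in replicate 1, 0.0386% of the gene counts (95% exact binomial interval 0.0333 to 0.0446%), and 171 reads in replicate 2, 0.0359% (0.0307 to 0.0417%). The mean was 0.0373% ± 0.00191 (SD, n = 2), and 0.253% ± 0.0238 (SD, n = 2) of the lncRNA counts. At least 1 read in both replicates was found for 9 of the 30 genes (30%), beside 7.10% of all 14157 lncRNA genes. A read in either replicate was found for 17 (56.7%), beside 14.4% of lncRNA genes. The median over the 30 genes was 3.15 CPM, and that over all lncRNA genes was 0. Only 3 genes, SNHG7, SNHG29 and GAS5, had at least 10 reads in both replicates. The merged exons of the 30 genes have a median of 4368 bases against 882 for lncRNA genes, so these shares are not set on equal lengths. Among genes with a read alone, the median was 19.6 CPM for the host genes and 19.7 for lncRNA genes. Per kilobase of exon it was 3.83 and 15.1. Among genes with at least 10 reads summed, the medians were 24.9 and 35.4 CPM, and 4.69 and 31.1 CPM per kilobase. A read minimum asks for a higher level per kilobase on a shorter gene, so these per-kilobase medians are not on equal terms.

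SNHG7 (ENSG00000233016, chr9:136721366-136728184, minus strand), which hosts the SNORA17 snoRNAs, had the most reads of the 30 genes. It was counted 36 times in replicate 1, 73.6 CPM (95% exact Poisson interval 51.5 to 102), and 56 times in replicate 2, 118 CPM (88.9 to 153). The mean was 95.6 CPM ± 31.2 (SD, n = 2), which placed it at rank 296 among the lncRNA genes, and the intervals of the replicates overlapped. The ratio of replicate 2 to replicate 1 was 1.60 (95% exact conditional interval 1.03 to 2.50). This interval only just leaves out equal levels and treats each read as independent, which the excess of even counts puts in doubt. It was not worked out with halved counts. SNHG29 (ENSG00000175061, chr17:16438767-16480249, plus strand), known also as LRRC75A-AS1 and the host of SNORD49A, SNORD49B and SNORD65, had 15 and 18 reads in replicates 1 and 2, a mean of 34.2 CPM ± 5.06 (SD, n = 2). GAS5 (ENSG00000234741, chr1:173858559-173868882, minus strand) had 10 and 14 reads, 24.9 CPM ± 6.34 (SD, n = 2). For SNHG29 and GAS5 the replicates differed by less than their counting intervals.

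ZFAS1 (ENSG00000177410, chr20:49278178-49299600, plus strand), host of the SNORD12 snoRNAs, had 32 reads in replicate 1 and 6 in replicate 2, or 65.4 and 12.6 CPM, a ratio of 5.19 (95% exact conditional interval 2.14 to 15.2). SNHG3 (ENSG00000242125, chr1:28505980-28510892, plus strand), host of the SNORA73 snoRNAs that act in the first cleavages of ribosomal RNA, had 27 and 8 reads, 55.2 and 16.8 CPM, a ratio of 3.28 (1.45 to 8.36). In both genes replicate 1 was higher and the intervals of the replicates did not overlap. SNHG14 (ENSG00000224078, chr15:24978583-25420336, plus strand), the long paternally expressed transcript that runs antisense to UBE3A and carries the SNORD115 and SNORD116 clusters, went the other way. It had 2 reads in replicate 1 and 27 in replicate 2, 4.09 and 56.7 CPM, so replicate 1 was 0.0721 of replicate 2 (0.00831 to 0.287). SNHG25 (ENSG00000266402, chr17:64145937-64146476, plus strand), a short gene with SNORD104 and SNORA50C, had 18 and 6 reads, a ratio of 2.92 (1.11 to 8.98). SNHG12 (ENSG00000197989, chr1:28578538-28583132, minus strand), host of SNORA44 and SNORA61, had 14 and 5 reads, a ratio of 2.72 (0.927 to 9.66). For SNHG25 and SNHG12 the intervals of the replicates overlapped.

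Reads in a single replicate were seen for 8 genes, 2 in replicate 1 and 6 in replicate 2. Of the 17 host genes with a read, 9 had one in both replicates, as had 1005 of 2036 lncRNA genes. At 10 or more reads summed, 3 of 11 host genes (27.3%) had 0 in 1 replicate. The share was 31.2% for lncRNA genes and 30.5% for protein-coding genes. SNHG15 (ENSG00000232956, chr7:44983019-44986961, minus strand), host of SNORA9, had 20 reads in replicate 1 and 0 in replicate 2. SNHG17 (ENSG00000196756, chr20:38419638-38435409, minus strand), host of the SNORA71 snoRNAs, had 14 and 0. SNHG10 (ENSG00000247092, chr14:95521943-95534889, minus strand), host of SCARNA13, had 0 and 10. Each of these 3 had non-overlapping intervals, and with ZFAS1, SNHG3 and SNHG14 they made up 6 of the 11 genes with at least 10 reads summed. The like share over all genes with at least 10 reads summed was not worked out, so this count does not set the host genes apart. The same 11 genes divided into 6 with the higher CPM in replicate 1 and 5 with the higher CPM in replicate 2. Below 10 reads there were 6 genes. SNHG20 had 0 and 6 reads, SNHG19 had 1 and 4, and SNHG8 and SNHG11 each had 0 and 4. SNHG5, host of SNORD50 snoRNAs, had 0 and 2, and SNHG22 had 0 and 1. With every count halved, because of the excess of even counts, 3 of the 6 (ZFAS1, SNHG14 and SNHG15) still had non-overlapping intervals and SNHG3, SNHG17 and SNHG10 did not.

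**Figure D1:**
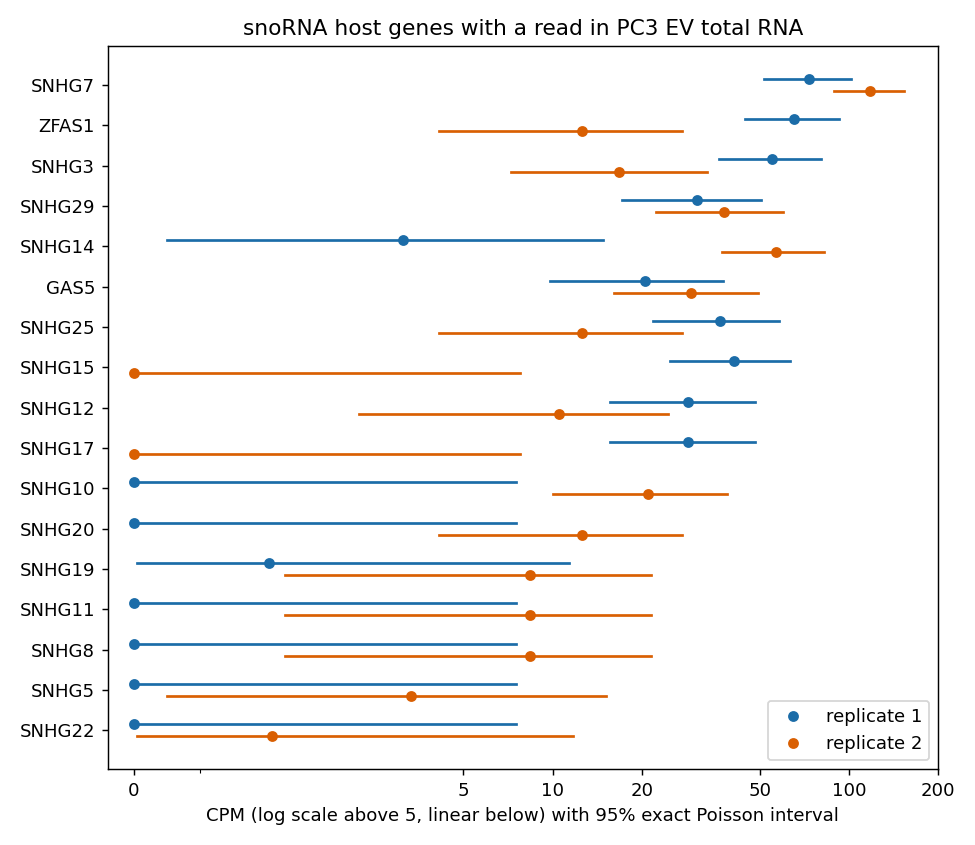
CPM of each of the 17 snoRNA host genes with a read (points) in replicate 1 (blue) and replicate 2 (orange) of PC3 EV total RNA, with 95% exact Poisson intervals as lines and the axis logarithmic above 5. SNHG7 is highest at 73.6 and 118 CPM, and ZFAS1, SNHG3, SNHG14, SNHG15, SNHG17 and SNHG10 have intervals that do not overlap between the replicates.

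No read was counted in either replicate for 13 genes, which allows a level of up to 6.13 CPM in replicate 1 and 6.30 CPM in replicate 2 at 3 reads. The upper ends of the exact Poisson intervals for a count of 0, which are bounded on both sides, were 7.54 and 7.75 CPM. They were SNHG1, SNHG4, SNHG6, SNHG9, SNHG16, SNHG18, SNHG21, SNHG26, SNHG27, SNHG28, SNHG30, SNHG31 and SNHG32. SNHG1, SNHG6, SNHG16 and SNHG32 are broadly expressed in cultured human cells. The count of 0 does not show that a transcript was absent from the vesicles.

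Genes can be ordered only per length. On CPM per kilobase of merged GENCODE exon, SNHG25 was first with 108 and 37.1 in replicates 1 and 2, a mean of 72.7 ± 50.3 (SD, n = 2) over 340 bases of exon. SNHG7 came next with 15.0 and 24.0, a mean of 19.5 ± 6.37 (SD, n = 2) over 4893 bases. SNHG3 had a mean of 8.81 ± 6.64, SNHG15 5.18 ± 7.33, GAS5 5.05 ± 1.29, ZFAS1 4.69 ± 4.49, SNHG12 4.59 ± 3.0 and SNHG29 3.83 ± 0.566 CPM per kilobase (SD, n = 2 each). SNHG10 had 1.93 ± 2.73, SNHG17 1.20 ± 1.70 and SNHG14 0.248 ± 0.304. None of the neighbours in this order had separate intervals in both replicates. Of all 55 pairs among the 11 genes, 19 were apart in both replicates in the same direction, 9 with SNHG25 as the higher gene and 6 with SNHG14 as the lower. SNHG25 was apart from every gene except SNHG7, and SNHG7 was apart from GAS5, SNHG29, SNHG10, SNHG17 and SNHG14. The 19 pairs were not worked out with halved counts. Of the 340 exon bases of SNHG25, 133 also belong to SNORA50C. The exon length of SNHG14 is 122609 bases over 142 annotated transcripts, and the annotation release used for counting is not given in the sources used here, so the lengths are those of release 44.

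**Figure D2:**
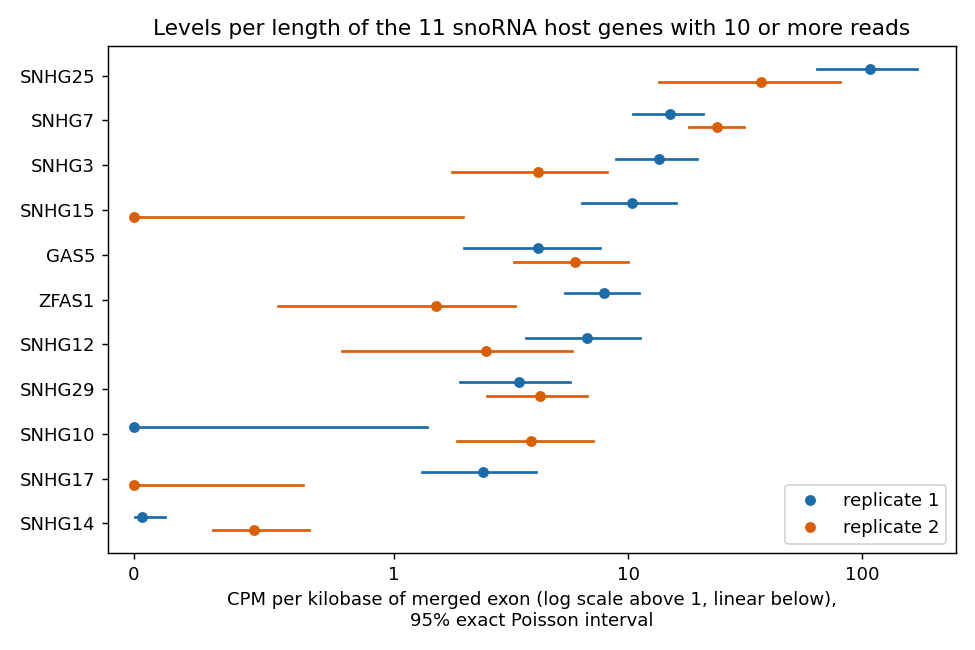
CPM per kilobase of merged exon for the 11 snoRNA host genes with at least 10 reads summed, in replicate 1 (blue) and replicate 2 (orange), with 95% exact Poisson intervals as lines and the axis logarithmic above 1. SNHG25 lies at 108 and 37.1 and SNHG14 at 0.0333 and 0.463, and neighbouring genes overlap in at least 1 replicate.

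The small RNAs carried by the host genes were then read from the same total RNA counts. Of the snoRNA and scaRNA genes with a row in the count tables, GENCODE places 143 inside 29 of the 30 host genes on the same strand, 84 of them in SNHG14. None of those with a row lies in GAS5, where RefSeq lists 11 snoRNA genes that were not analysed here. At least 1 read in both replicates was counted on 5 of the 143 (3.50%), beside 1.21% of all 990 snoRNA and scaRNA genes. A read in either was counted on 6 (4.20%), beside 2.83%. Some of the 143 rows cover nearly the same bases, as in SNHG7, with 4 rows against 2 snoRNA genes in RefSeq. Such rows add to the 143, and a read there can touch more than 1 gene and be set aside. The 6 are shown because they are the hosted small RNAs with reads. Capitals mark the ACA triplet near the 3′ end of the SNORA RNAs and SCARNA13, which belong to the H/ACA class that guides pseudouridylation. In SNORD104 they mark TGATGA, the core of box C, and CTGA, box D, of the class that guides methylation. An ACA within the last 6 bases was found in 26 of the 143 hosted genes (18.2%) and in 38.6% of all 990, and TGATGA with CTGA in 97 (67.8%) and 32.8%, searched on the strand of the gene. The 84 genes of SNHG14, mostly SNORD115 and SNORD116 copies, weigh on the hosted shares, which were not worked out without them. Box CTGA can overlap TGATGA in a search of this kind, and neither match says that the RNA is processed.
SNORA73B: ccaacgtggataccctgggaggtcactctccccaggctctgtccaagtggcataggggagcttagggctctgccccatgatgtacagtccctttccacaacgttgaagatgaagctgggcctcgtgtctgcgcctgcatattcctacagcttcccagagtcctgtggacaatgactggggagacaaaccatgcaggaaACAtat
SCARNA13: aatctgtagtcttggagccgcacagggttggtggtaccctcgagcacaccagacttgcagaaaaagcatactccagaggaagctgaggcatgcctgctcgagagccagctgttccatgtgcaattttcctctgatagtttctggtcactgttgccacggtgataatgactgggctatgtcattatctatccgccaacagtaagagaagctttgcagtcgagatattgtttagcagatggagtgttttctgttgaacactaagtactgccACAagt
SNORA71A: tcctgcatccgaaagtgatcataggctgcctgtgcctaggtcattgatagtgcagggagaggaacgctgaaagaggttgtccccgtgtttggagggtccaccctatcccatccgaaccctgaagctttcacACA
SNORA71D: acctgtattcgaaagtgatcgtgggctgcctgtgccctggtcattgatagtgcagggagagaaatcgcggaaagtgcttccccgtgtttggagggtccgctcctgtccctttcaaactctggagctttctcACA
SNORA71C: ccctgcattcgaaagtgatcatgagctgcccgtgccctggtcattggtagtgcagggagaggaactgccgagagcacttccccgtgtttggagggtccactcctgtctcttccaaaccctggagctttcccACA
SNORD104: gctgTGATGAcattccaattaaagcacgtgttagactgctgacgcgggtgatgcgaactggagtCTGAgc

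SNORA73B (chr1:28508559-28508762, plus strand), which lies in an intron of SNHG3, had 137 and 254 reads in replicates 1 and 2, a mean of 407 CPM ± 179 (SD, n = 2). Its host had 27 and 8, so the small RNA had more reads than the host in both replicates. SNHG3 was higher in replicate 1 and SNORA73B in replicate 2. RCC1, a protein-coding gene on the same strand (chr1:28505943-28539300), also spans SNORA73B and had 14 and 48 reads. Which of the 2 transcripts SNORA73B came from cannot be told from these counts. SNORA73A, the other copy in SNHG3, matches SNORA73B at 192 of 206 aligned positions (93.2%) and had no read. Reads that align to more than 1 place were set aside in the counting, 45.5% and 48.1% of all reads, so the counts of copies this close are uncertain.

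SCARNA13 (chr14:95533355-95533629, minus strand), which acts on a spliceosomal RNA in Cajal bodies, had 144 and 174 reads, 330 CPM ± 50.4 (SD, n = 2), against 0 and 10 on its host SNHG10. Its 5′ part lies opposite the start of GLRX5, described below. SNORA71A (chr20:38427309-38427442, minus strand) had 34 and 10 reads, against 14 and 0 on SNHG17. SNORA71D (chr20:38433865-38433998, minus strand), also in SNHG17, had 4 and 12, and SNORA71C (chr20:38429670-38429803, minus strand) had 0 and 4. The identity between these 3 copies was 83.1% for SNORA71A with either of the others and 86.6% for SNORA71C with SNORA71D. SNORD104 (chr17:64146083-64146152, plus strand) had 6 and 2 reads against 18 and 6 on SNHG25, the only one of the 6 with fewer reads than its host in both replicates.

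**Figure D3:**
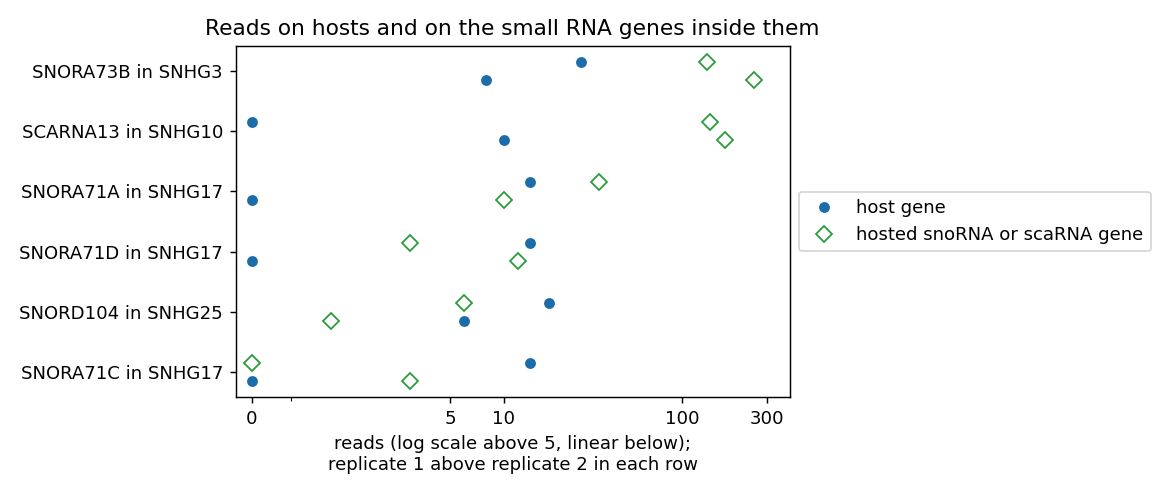
Reads on the 6 hosted snoRNA or scaRNA genes with a read (open green diamonds) and on their host genes (blue points), with replicate 1 above replicate 2 in each row and the axis logarithmic above 5. SNORA73B, at 137 and 254, and SCARNA13, at 144 and 174, lie above their hosts in both replicates.

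Of the 143 hosted genes, 84 overlap an exon of some host transcript and 59 lie in introns alone. A read was counted on 4 of the 84 and 2 of the 59. The reads on the intron-only genes summed to 143 and 256, nearly all on SNORA73B, and those on all hosted genes to 325 and 456. No read was counted on the 84 snoRNA genes of SNHG14, or on the 7 of SNHG1. Reads that touched more than 1 gene were set aside as ambiguous by the counting, 118736 in replicate 1 and 150525 in replicate 2. That is 24.3 and 31.6 for every 100 reads counted on a gene. How many of them came from a host exon that overlaps a snoRNA was not tested.

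The small RNA libraries held a miRNA that lies within SNHG20. Both arms of miR-6516 lie inside SNHG20 on its strand and within SCARNA16, and no other mature miRNA of the RefSeq table used lies inside a host gene on the same strand. The arms are shown 5′ to 3′ with the seed, bases 2 to 8, in capitals.
miR-6516-5p: uUUGCAGUaacaggugugagca
miR-6516-3p: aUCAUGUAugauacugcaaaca

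miR-6516-3p (chr17:77089469-77089490, plus strand) had 19 reads in the first small RNA library and 11 in the second, 110 CPM ± 18.4 (SD, n = 2) of the 154185 and 113185 miRNA reads. miR-6516-5p (chr17:77089428-77089449, plus strand) had 5 and 3 reads, 29.5 CPM ± 4.19 (SD, n = 2). The 3p arm was the higher in both libraries. SEC14L1, a protein-coding gene on the same strand (chr17:77088749-77217101), also spans both arms, so these reads cannot be assigned to SNHG20. In the total RNA, SNHG20 had 0 and 6 reads, SEC14L1 0 and 4 and SCARNA16 0 and 0. Because both small RNA columns bear the same name, neither was matched to a total RNA replicate.

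Some host genes lie across the strand from another gene. Exons of 15 of the 30 genes overlap exons of a gene on the opposite strand that has a row in the tables, in 19 pairs. The share of all lncRNA genes with such a partner was not worked out, so this count does not set the host genes apart. Their longer merged exons, with a median of 4368 bases against 882, also give more room for overlap. The opposite gene had more reads in both replicates in 9 of the 19 pairs (47.4%), and the host gene in 2 (10.5%). Over all 5396 such pairs of a lncRNA gene and a partner, the partner was higher in both in 12.2% and the lncRNA gene in 15.3%. Among pairs with a read on either gene, the partner was higher in 9 of 17 (52.9%) and the host gene in 2 of 17 (11.8%). The corresponding background was 22.4% and 28.1% of 2943 pairs. Partners in both backgrounds could be lncRNA genes, so a pair of 2 lncRNA genes entered from both sides. Most of the 19 partners of the host genes are protein-coding. The shares were not worked out by type of partner, so host genes and background are not on equal terms. The strand setting of the counting is not given in the sources used here, and its part in these values was not tested. It is therefore not known whether reads counted on a host gene, or on the lncRNA genes set beside it, came from its own strand.

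GLRX5, a mitochondrial protein of iron-sulfur cluster assembly, had 3144 and 3910 reads opposite SNHG10, which had 0 and 10. Their exons overlap over 301 bases. LRRC75A had 254 and 197 reads opposite SNHG29, which had 15 and 18, with 500 bases in common. GAS5-AS1 had 11 and 17 reads opposite GAS5, which had 10 and 14, with 132 bases in common. ZNFX1, whose promoter faces ZFAS1, had 80 and 34 reads where ZFAS1 had 32 and 6. In these 4 pairs the partner was higher in both replicates, and ZNFX1 and ZFAS1 were both higher in replicate 1.

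Opposite partners were also read where the host gene was at or near 0. MCMDC2, a meiotic gene, had 39 and 40 reads, and its exons cover 1488 bases of SNHG6 exon, 58.9% of the merged exon length of SNHG6, which had none. PRSS12, a secreted protease, had 26 and 32 reads and covers 2487 bases of SNHG8 exon, where SNHG8 had 0 and 4. SIL1 had 5 and 3 reads opposite SNHG4 and MYO5B 4 and 8 opposite SNHG22. Of the 13 genes without a read, 6 had such a partner in the tables and 5 of these had a partner with a read. The other 7, SNHG1 among them, had no such partner. Reads were counted on whole genes, so it is not known whether a partner's reads fell in the shared bases.

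SNHG7 did not follow the direction of these pairs. DIPK1B, which covers 1482 bases of its exon, had 44 and 31 reads against 36 and 56, so the order changed between the replicates. TRNAU1AP had 14 and 36 against 14 and 5 on SNHG12, with only 8 bases in common. The 2 pairs with the host gene higher were both of SNHG14, with UBE3A at 0 and 10 reads and with a lncRNA gene, ENSG00000257647, at 0 and 0. On the same strand, RCC1 shares 242 bases of exon with SNHG3 and had 14 and 48 reads where SNHG3 had 27 and 8. Without the 15 genes that have an opposite partner, the host genes summed to 0.0113% of the gene counts.

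**Figure D4:**
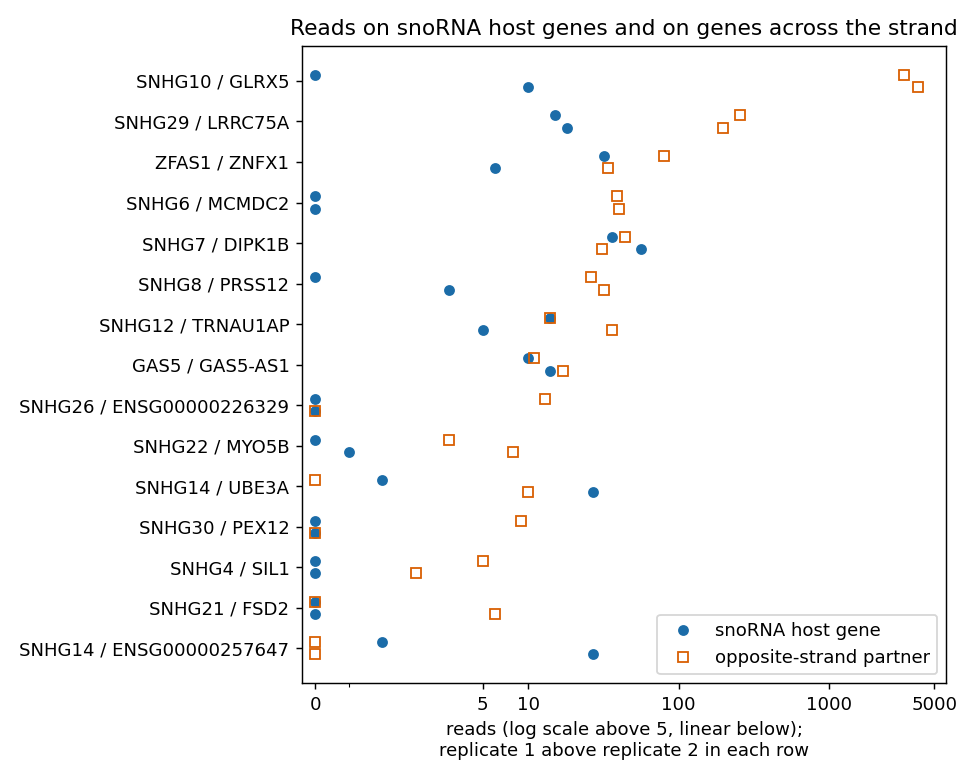
Reads on snoRNA host genes (blue points) and on genes whose exons lie across the strand (open orange squares) for 15 of the 17 pairs with a read, with replicate 1 above replicate 2 in each row and the axis logarithmic above 5. GLRX5, at 3144 and 3910 reads, is farthest from its host gene SNHG10, at 0 and 10, and the partner is higher in both replicates in 8 of the pairs shown.

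The host genes were set beside genes of the same pathways. Of 20 protein-coding genes whose introns also carry snoRNAs, 16 had a read in both replicates and all 20 in either, with a median of 78.4 CPM. Over all 19629 protein-coding genes, 21.9% had a read in both replicates and 42.3% in either, with a median of 0. NCL, which encodes the nucleolar protein nucleolin, was highest with 486 and 375 reads, followed by EEF2, the translation elongation factor, with 370 and 288. RPL13A, a ribosomal protein, had 189 and 181, as many as or more than the 30 lncRNA hosts summed in each replicate. Of 9 other lncRNA genes, 4 (44.4%) had a read in both replicates, beside 7.10% of all lncRNA genes. NEAT1, the scaffold of paraspeckles, had 283 and 243 reads, and MALAT1, a nuclear speckle RNA, had 265 and 186. NORAD, a cytoplasmic RNA that binds Pumilio proteins, had 63 and 39 and OIP5-AS1 30 and 15. DANCR had 0 and 8 reads, MEG8 0 and 1, and EPB41L4A-AS1, TUG1 and CYTOR had none.

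Of 8 genes for the proteins that assemble on snoRNAs, all had a read in either replicate and 2 (25%) in both, beside 42.3% and 21.9% of protein-coding genes. NOP56, of the methylation guide particle, had 29 and 70 reads and DKC1, the pseudouridine synthase, 26 and 36. FBL, the methyltransferase, had 4 and 0. Of 10 factors of nonsense-mediated decay, 5 had a read in both replicates and 9 in either, beside the same 21.9% and 42.3%. UPF1, its central helicase, had 36 and 26 reads and SMG5 27 and 23, whereas UPF2 had 41 and 0 and SMG8 had none.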

How the data were processed

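The material was 2 stranded total RNA and 2 small RNA libraries of PC3 EVs. For the total RNA, the authors trimmed reads, aligned them to GRCh38 and deposited HTSeq counts, not normalized, for each Ensembl gene. For the small RNA, the authors used Cutadapt and SHRiMP and deposited raw counts per mature miRNA. Versions, strand setting, overlap mode and annotation release are not given in the sources used here. The submitters' processing notes name HTSeq and GRCh38.

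Each total RNA file was tied to replicate 1 or 2 by the description that names it. The title of the replicate 2 sample repeats the EX1 name, so its file was matched by the description alone. Symbols, types, exons and transcript sequences came from GENCODE release 44, which matched 56948 of 58051 gene identifiers. RefSeq tables (GRCh38.p14) gave gene starts, miRNAs and the snoRNA genes inside GAS5 and SNHG7. CPM used the reads counted on genes as the total. Intervals are 95% exact Poisson, binomial or conditional binomial, and the floor is 3 counts. Their coverage was tested on simulated independent Poisson counts, the model the intervals assume. Such counts lack the excess of even counts seen here, so the coverage on these data is not known. Genes with at least 10 reads summed were named with both counts, genes at 0 by name, partners with exon overlap beside them, and other genes from the fixed lists. The 6 genes with 1 to 9 reads were few and are named too. A pair of levels was taken as apart when the intervals did not overlap in both replicates in the same direction. The design has 1 condition, so no test was run. The genes, lists and rules were chosen with earlier results of these data known. Alternatives were other count minimums, totals, TMM scaling, lengths, overlaps and starts, and leaving out each replicate. Python 3.11.15 with pandas 2.3.3, numpy 2.4.6, scipy 1.17.1, Biopython 1.88 and matplotlib 3.10.9 was used, with edgeR 4.0.16 in R 4.3.3 for TMM. Some genes are not reported here.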

Additional observations from a re-analysis of the deposited data

Results flagged for a closer look

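Reads of miR-6516 stand outside the total RNA counts on which the host genes were compared. They were listed because they come from libraries outside that comparison, and no read minimum was applied. miR-6516-3p had 19 and 11 reads and miR-6516-5p 5 and 3 in the first and second small RNA library. There were no control samples.

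Reads set aside as ambiguous belong to no gene row. There were 118736 in replicate 1 and 150525 in replicate 2, against 189 and 171 reads on the host genes. The share that would fall on host genes was not tested.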

How the results depend on the processing

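No paired analysis was possible because a single condition was sequenced and both small RNA columns bear the same name. The number of host genes identified, 9, was 17 with a read in either replicate and 3 when 10 reads were required in both. The range was 11 to 15 with a single replicate. At least 3 reads in both and the SNHG symbols alone each gave 7, and adding EPB41L4A-AS1 gave 9. The summed share of 0.0373% was 0.0578% without miscellaneous RNA and mitochondrial genes in the total, 0.253% with lncRNA reads as the total, 0.0309% for SNHG symbols alone and 0.0113% without genes that have an opposite partner. It was from 0.0359 to 0.0386% with a single replicate and 0.0373% with TMM scaling. The 5 highest genes per kilobase kept 3 of their number with the longest transcript as length and 4 with either replicate alone. The mean of the intron-only snoRNA reads, 199.5, became 390.5 with exon overlap allowed and was from 143 to 256 with a single replicate. The 7 RefSeq starts with a pyrimidine run became 17 with any annotated transcript start, 9 with at least 3 pyrimidines and 5 with at least 5. Requiring 50 bases left 14 of the 15 genes with an opposite partner. With every count halved, chosen after the excess of even counts was seen, 3 of the 11 named genes, ZFAS1, SNHG14 and SNHG15, had intervals that did not overlap, against 6. Without miscellaneous RNA and mitochondrial genes in the total, the CPM of all 11 rose by 1.53 to 1.57 times, which was more than 1 SD in 3. At this depth a count of 0 does not tell absence from a level of up to 6.30 CPM in reads that could be counted on a gene.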

Other observations

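Detection was set beside the TOP start, a pairing chosen after both were seen. Of the 17 host genes with an annotated transcript that begins with C and at least 4 pyrimidines, 10 had a read in either replicate and 6 in both. Of the 13 without such a transcript, 7 had a read and 3 had a read in both. The gene with the most reads, SNHG7, and the longest, SNHG14, were among the 13.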
